A study of Homo sapiens with 2 samples.

Results

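The genes described here were the CEP genes (centrosomal proteins), the CENP genes (centromere proteins) and the TUBGCP genes (gamma-tubulin complex proteins), taken from the skipped-exon events by gene symbol alone. A symbol was included when it began with CEP and a number, with CENP and a letter, or with TUBGCP. The rule found 472 exons in 707 events of 58 genes, among 67154 exons in 113456 events over all genes, with the exons assigned to 11945 genes. Of these, 313 exons in 35 genes were CEP, 106 exons in 18 genes were CENP and 53 exons in 5 genes were TUBGCP. The rule used no measured value, although it was chosen with earlier results of these data known.

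The samples were 2 RNA libraries from HEK293T, a human embryonic kidney cell line. The control library came from cells without treatment, and the other came from cells kept for 6 h in medium with 300 µg/mL amiloride, a potassium-sparing diuretic. Amiloride was used in the study as a small molecule that alters splicing, and the comparison asks which exons were skipped more or less often between the libraries. There was 1 library per condition, so every call compares those libraries and no replicate checks it. In a bulk culture, a change in every cell and a change in the share of cells that include an exon cannot be told apart. The tables hold no expression levels, so the labelled cell line was not checked against marker genes.

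Each event names an exon and the exons on either side. The inclusion level of an event is an estimated share that keeps the exon, among the forms that event compares. Reads on the exon and its junctions are set against reads that join the named flanking exons. This level is therefore not the share of all transcripts of the gene that keep the exon. The difference subtracts the inclusion level of library 2 from that of library 1 and runs from -1 to 1. The deposited columns number the libraries and do not name them, so a positive difference means higher inclusion in the first numbered library and no direction is assigned to amiloride. An exon was called when any of its events had a false discovery rate (FDR) under 0.1, and an exon in several events is given by its event of lowest FDR. For the same reason the read counts of each library were not used, and the depth behind a single value is not given.

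Centrosomes organise microtubules and are built around centrioles, which are copied once in each cell cycle and can template a cilium. The gamma-tubulin ring complex, which holds the TUBGCP proteins, nucleates microtubules there. Centromeres are marked by nucleosomes with the histone variant CENP-A, on which the constitutive centromere network assembles and carries the outer kinetochore. Skipping an exon whose length is a multiple of 3 keeps the reading frame, and skipping another coding exon shifts it.

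The sequences of 7 exons with large positive differences are shown first, because each carries the largest called difference of its gene. Each run is 5′ to 3′ on the coding strand of GRCh37 (hg19), with 20 intron bases before the exon and 6 after it in lower case, and the capitals mark the exon. The 7 exons lie within the coding sequence of the canonical transcript, by which exons are numbered.
CENPJ exon 11 of 17 (chr13:25463454-25463538, minus strand): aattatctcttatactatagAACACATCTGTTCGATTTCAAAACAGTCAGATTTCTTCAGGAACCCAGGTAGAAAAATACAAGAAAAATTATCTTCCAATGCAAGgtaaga
CENPN exon 7 of 11 (chr16:81056202-81056303, plus strand): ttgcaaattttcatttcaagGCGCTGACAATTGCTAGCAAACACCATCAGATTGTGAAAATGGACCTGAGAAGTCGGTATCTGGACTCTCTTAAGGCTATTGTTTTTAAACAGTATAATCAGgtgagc
CEP290 exon 8 of 54 (chr12:88524322-88524342, minus strand): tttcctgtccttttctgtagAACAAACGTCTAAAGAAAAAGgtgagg
CEP112 exon 7 of 27 (chr17:64092703-64092750, minus strand): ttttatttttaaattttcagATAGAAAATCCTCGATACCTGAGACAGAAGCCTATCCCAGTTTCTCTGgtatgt
CEP89 exon 10 of 19 (chr19:33417840-33417890, minus strand): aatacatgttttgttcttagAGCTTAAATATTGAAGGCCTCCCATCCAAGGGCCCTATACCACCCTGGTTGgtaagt
CEP44 exon 11 of 12 (chr4:175237681-175237718, plus strand): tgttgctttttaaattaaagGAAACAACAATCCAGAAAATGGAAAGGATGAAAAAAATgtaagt
TUBGCP5 exon 9 of 23 (chr15:22848238-22848331, plus strand): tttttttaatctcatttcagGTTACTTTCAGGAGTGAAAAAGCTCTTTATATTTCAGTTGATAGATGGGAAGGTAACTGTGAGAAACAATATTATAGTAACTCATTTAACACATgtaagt

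For 3 long exons with negative differences and 2 exons with low-scoring 3′ splice sites, only the splice sites are shown, first the 23 bases of the 3′ splice site and then the 9 bases of the 5′ splice site, with exon bases in capitals.
CENPE exon 38 of 49, 3′ splice site (chr4:104060946-104061236 is the exon, minus strand): tgttttacaattatctcaagATC
CENPE exon 38, 5′ splice site: AGAgtgagt
CEP170 exon 10 of 20, 3′ splice site (chr1:243349081-243349374 is the exon, minus strand): tggtttctttgtctttacagACT
CEP170 exon 10, 5′ splice site: AAGgtaaat
CEP63 exon 14 of 15, 3′ splice site (chr3:134277992-134278271 is the exon, plus strand): ttttctaatctaccatccagGCC
CEP63 exon 14, 5′ splice site: TCGgtatgg
CEP162 exon 18 of 27, 3′ splice site (chr6:84879047-84879152 is the exon, minus strand): ttattttcaaaataaattagAGA
CEP162 exon 18, 5′ splice site: CAGgtaagt
TUBGCP3 exon 15 of 22, 3′ splice site (chr13:113174200-113174335 is the exon, minus strand): tttttaaaaaatttgttaagACC
TUBGCP3 exon 15, 5′ splice site: GAGgtactg

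Among the 472 exons, 172 were called (36.4%, 95% Wilson interval 32.2 to 40.9), against 35.8% of all exons, which the interval holds. The comparison with all genes depended on how exons with several events were counted. Among exons with a single event 96 of 317 members were called (30.3%, interval 25.5 to 35.6), against 25.3% of all such exons, and with a call required in every event 118 of 472 members remained (25%, interval 21.3 to 29.1), against 19.3%. Under both rules the interval lay above the share of all exons, only narrowly for exons with a single event. The every-event rule was chosen after seeing the data, and the intervals treat exons as independent, which adjacent exons are not. At FDR limits of 0.05 and 0.01 the members had 31.4 and 26.1% called, against 32.3 and 26.9% of all exons. Of the called exons, 163 had a positive difference, which is 34.5% of the members against 34.2% of all exons, and 9 had a negative difference, which is 1.91% against 1.54%. Counted as events, 212 of 707 were called (30%), against 27.5% of all events. The median size of the difference was 0.139 over the called exons and 0.0195 over the others, against 0.116 and 0.015 over all genes. At least 1 exon was called in 48 of the 58 genes, against 8000 of 11945 over all genes. The number of exons tested per gene was not matched between these. The 10 genes without a call were CENPA, CENPC, CENPF, CENPM, CENPW, CEP19, CEP68, CEP126, CEP152 and CEP170B.

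**Figure D1:**
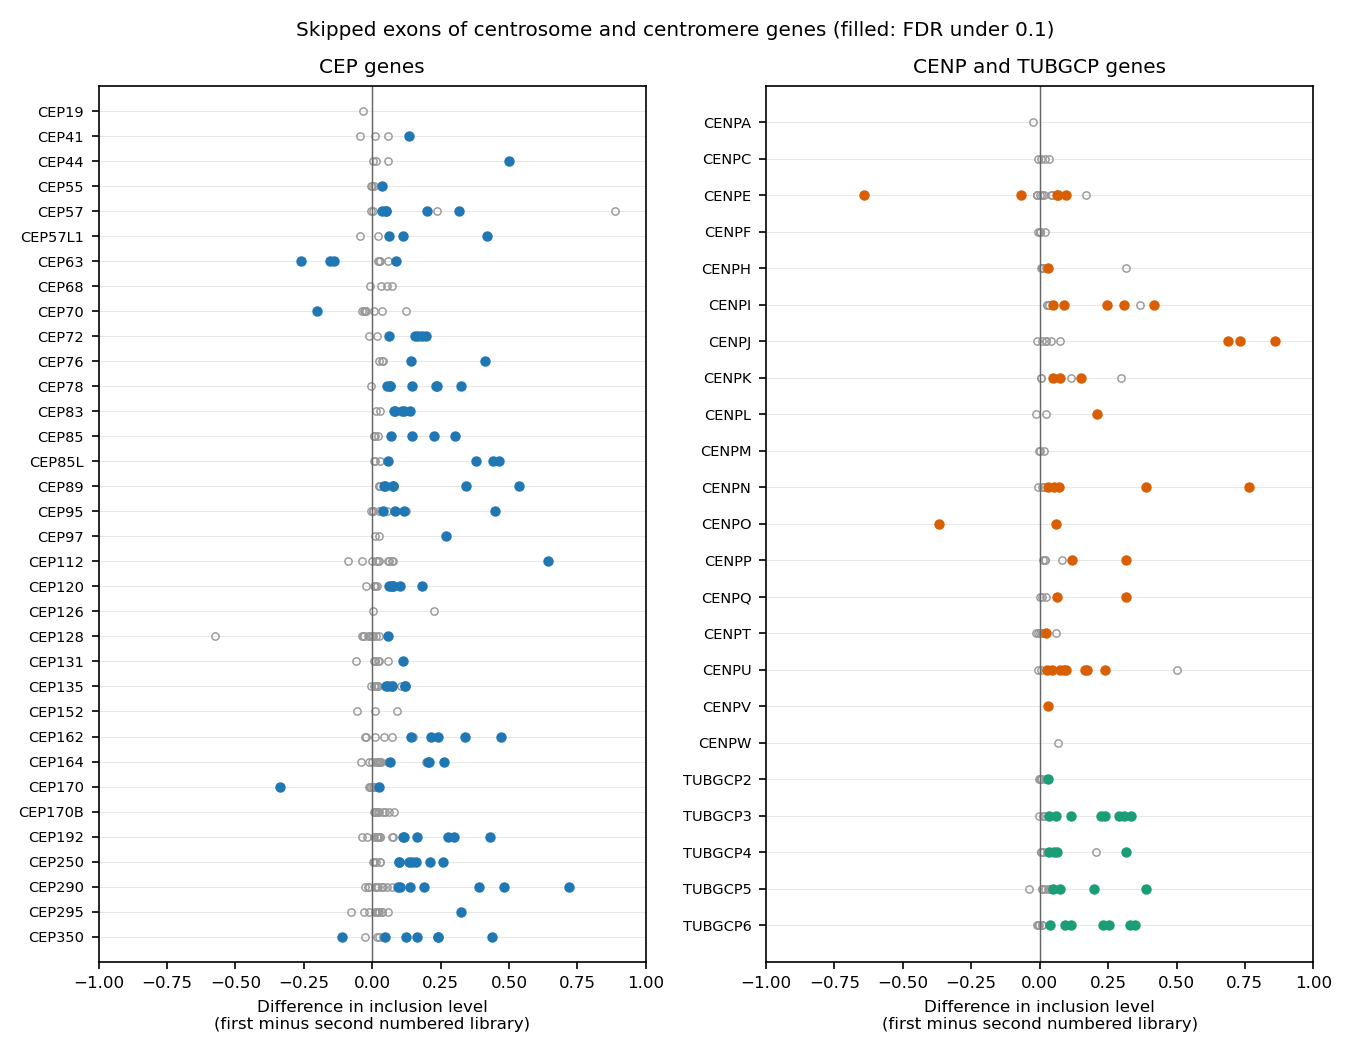
Each point is 1 skipped exon of a CEP gene (left) or of a CENP or TUBGCP gene (right), placed by its difference in inclusion level, with filled points for exons with an FDR under 0.1 and open grey points for the others, and 1 CEP gene is not drawn. Most of the 172 called exons lie to the right of 0, and CENPE, CENPO, CEP63, CEP70, CEP170 and CEP350 hold the 9 to its left.

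By family, 109 of 313 CEP exons (34.8%), 39 of 106 CENP exons (36.8%) and 24 of 53 TUBGCP exons (45.3%) were called. The interval of the TUBGCP share ran from 32.7 to 58.5% and held the 35.8% of all exons. Under the other 2 rules it lay above the share of all exons. With a single event 14 of 32 exons were called (43.8%, interval 28.2 to 60.7), against 25.3% of all exons. With every event called it was 16 of 53 (30.2%, interval 19.5 to 43.5), only narrowly above 19.3%. These intervals also treat exons as independent. Calls were positive in 24 of 24 TUBGCP, 103 of 109 CEP and 36 of 39 CENP exons, against 95.7% of all called exons, and the families were not tested against each other. The median size of the called differences was 0.14 for CEP, 0.097 for CENP and 0.158 for TUBGCP.

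Grouped by role, the shares of called exons were 36 of 97 for centriole duplication and assembly, 25 of 74 for appendages and the centrosome linker, 23 of 67 for cilia, and 30 of 76 for centromeric chromatin and the constitutive centromere network. The outer kinetochore corona proteins CENPE and CENPF had 5 of 20, all in CENPE. CEP55, which acts in abscission, the last step of cell division, had 1 of 4, its exon 4 with a difference of 0.035 (FDR = 0.00077). For each of these lists the 95% interval of the share held the background of 35.8%. Other centrosome genes, such as PLK4 and PCNT, had 147 of 404 exons called (36.4%), and other kinetochore genes, such as NDC80 and BUB1, had 100 of 243 (41.2%).

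**Figure D2:**
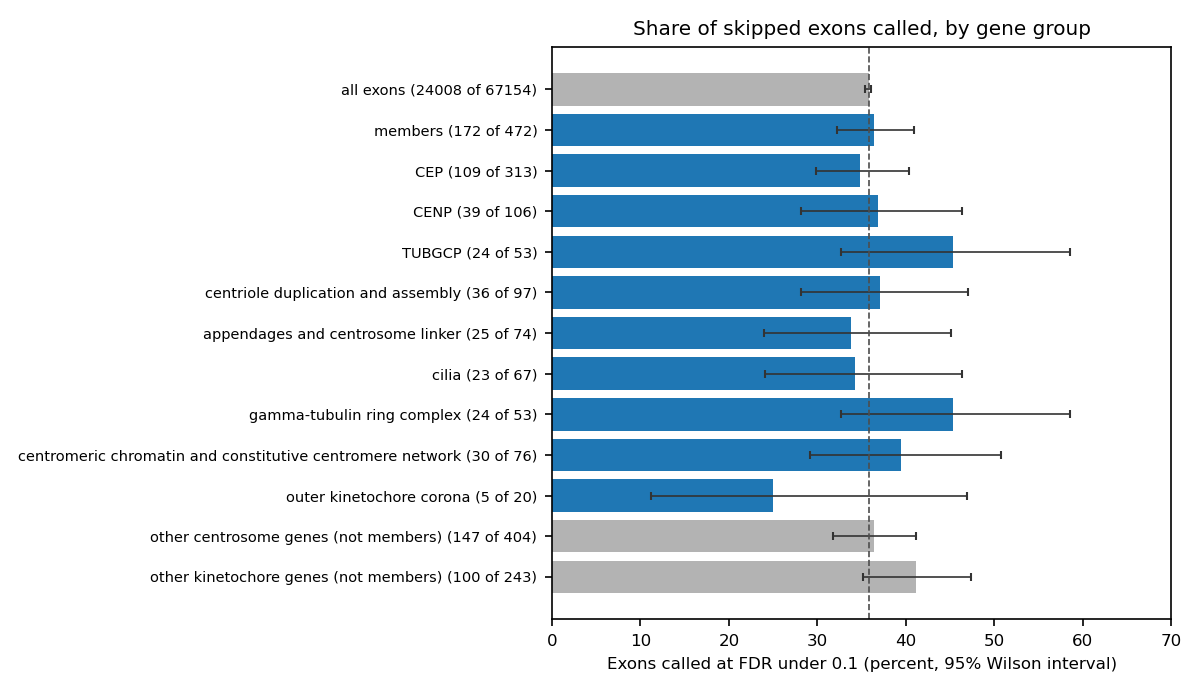
Bars give the percent of skipped exons called at an FDR under 0.1 in each gene group, with the number called and tested beside the name, error bars for the 95% Wilson interval and a dashed line at the 35.8% of all exons. The interval of every member group crosses the line.

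Among the proteins that build the centriole, the largest difference of all called member exons fell in CENPJ, which despite its name is a centriolar protein needed for the growth of centriolar microtubules. Exons 11, 12 and 13 were called with differences of 0.861 (FDR listed as 0), 0.732 (FDR = 1.5e-14) and 0.688 (FDR listed as 0). By event of lowest FDR, the other 6 CENPJ exons tested lay between -0.01 and 0.074. Another event of 1 of these, a 117-base exon outside the canonical transcript, had 0.397 (FDR = 0.45). Exon 11 is the 85-base sequence printed above and covers codons 1073 to 1101. The values of exons 11, 12 and 13 came from events in which the skipped form joins exon 10 to exon 13 or exon 14. Where exon 11 alone is skipped, joining exon 10 to exon 12, the difference was 0.043 (FDR = 0.24), and where exon 13 alone is skipped it was 0.029 (FDR = 0.58). Exon 12 skipped alone had a difference of 0.102 (FDR = 0.0082). Joining exon 10 to 14 leaves out 261 bases and joining exon 10 to 13 leaves out 150 bases, both multiples of 3, although exons 11 and 12 have lengths of 85 and 65 bases.

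CEP192, a scaffold that recruits the duplication kinase PLK4, had 6 of 18 exons called, from 0.112 to 0.432, the largest at exon 12 (65 bases, FDR = 0.005). CEP44, which acts in the conversion of centrioles to centrosomes, had its call on the 38-base exon 11, with 0.5 (FDR = 5.8e-09), while its other 3 exons lay between 0.004 and 0.057. CEP295, also needed for that conversion, had 1 of 12 exons called, exon 20 with 0.323. CEP120 had 6 of 11 exons called between 0.063 and 0.182, and CEP135, a cartwheel protein, 6 of 15 between 0.051 and 0.119. CEP57 had 5 of 9 called, the largest at exon 8 with 0.316 (FDR listed as 0). CEP152, another PLK4 receptor, had none of 3.

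CEP63, which works with CEP152 in duplication, was the exception in direction. Of its 4 called exons, 3 were negative, with -0.26 at exon 14 (280 bases, FDR = 1.4e-11), -0.14 at exon 13 (206 bases) and -0.156 at a 72-base exon outside the canonical transcript (FDR = 0.093), and exon 9 was positive with 0.086. Both calls at exons 13 and 14 came from the events that join exon 12 to exon 15. The joint skip leaves out 486 bases, a multiple of 3, while 206 and 280 are not. Skipping either exon alone had differences of -0.171 and -0.073 without a call, each with FDR = 0.42.

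Among proteins of the appendages that anchor centrioles at membranes and microtubules, CEP89 had its largest difference at the 51-base exon 10, with 0.537 (FDR listed as 0), followed by 0.343 at exon 12, and its other 4 called exons were between 0.042 and 0.076. CEP164, the distal appendage protein that starts cilium assembly, had 4 of 18 called, from 0.064 to 0.263. CEP83 had 5 of 7 called within a narrow range of 0.079 to 0.139. CEP170, at the subdistal appendages, was negative at exon 10 (294 bases), with -0.336 (FDR listed as 0), and had 0.023 at exon 18. Its paralog CEP170B had no call among 10 exons, with differences between 0.008 and 0.078. CEP250, the linker protein that holds the centrosomes together, had 7 of 13 called, each from 1 event, between 0.099 and 0.26. CEP68, another linker protein, had none of 4, and CEP128 had 1 of 11, exon 24 with 0.058 (FDR = 0.097).

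Among cilia proteins, CEP290, a gatekeeper of the ciliary transition zone, had the largest value, 0.72 at exon 8 (FDR = 0.00023). This 21-base exon, printed above, covers codons 166 to 172. The value belongs to the form that joins exon 6 to exon 9 and leaves out 75 bases, and the neighbouring 54-base exon 7 had 0.481 in that form (FDR = 0.0001). Skipped alone, exon 8 had 0.172 (FDR = 0.018) and exon 7 had 0.102 (FDR = 0.062). The other 5 called CEP290 exons lay between 0.094 and 0.389, the largest at exon 51, and 12 exons were not called. CEP162, which promotes transition zone assembly, had 5 of 11 called between 0.14 and 0.472, the largest at exon 18. CEP78 had 7 of 8 called between 0.054 and 0.326, and CEP97, which caps centrioles and holds back cilium growth, had 0.27 at exon 4. All 23 called skipped exons of the cilia genes were positive, against 95.7% of all called exons. Other event types of these genes held negative calls, such as the alternative 3′ splice site of CEP97 given below.

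In the gamma-tubulin ring complex, TUBGCP3 had 8 of 12 exons called, TUBGCP6 7 of 13, TUBGCP4 4 of 10, TUBGCP5 4 of 11 and TUBGCP2 1 of 7. By event of lowest FDR, the largest difference of the family was at TUBGCP5 exon 9 with 0.389 (94 bases, FDR listed as 0). TUBGCP3 was called at 5 exons in a row, from 11 to 15, the longest such run among the members. Its largest value by that rule was 0.332 at exon 15. A called event of exon 11 that joins exon 8 to exon 13 had 0.534 (FDR = 5.3e-10), the largest called value of the family. Several TUBGCP3 events shared exon 8 as the exon before the skip. Joining exon 8 to exon 12 had differences of 0.288 and 0.307 in its 2 called events, for exons 11 and 9, and leaves out 369 bases, a multiple of 3. Exon 9 skipped alone had 0.001 (FDR = 1). TUBGCP4 stood at 0.314 at the 51-base exon 10, and its other 3 called exons at 0.034 to 0.062. TUBGCP6 had 0.347 at exon 4 (FDR = 0.00025), where 1 of 6 events was called and the other 5 lay between -0.032 and 0.086. TUBGCP6 exon 6 followed with 0.329 (FDR listed as 0), and exon 16, with 1624 bases the longest called member exon, had 0.254 (FDR = 1.5e-11). TUBGCP2, which together with TUBGCP3 forms the small complex, had its call at exon 16 with 0.032 (FDR = 1.8e-05).

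**Figure D3:**
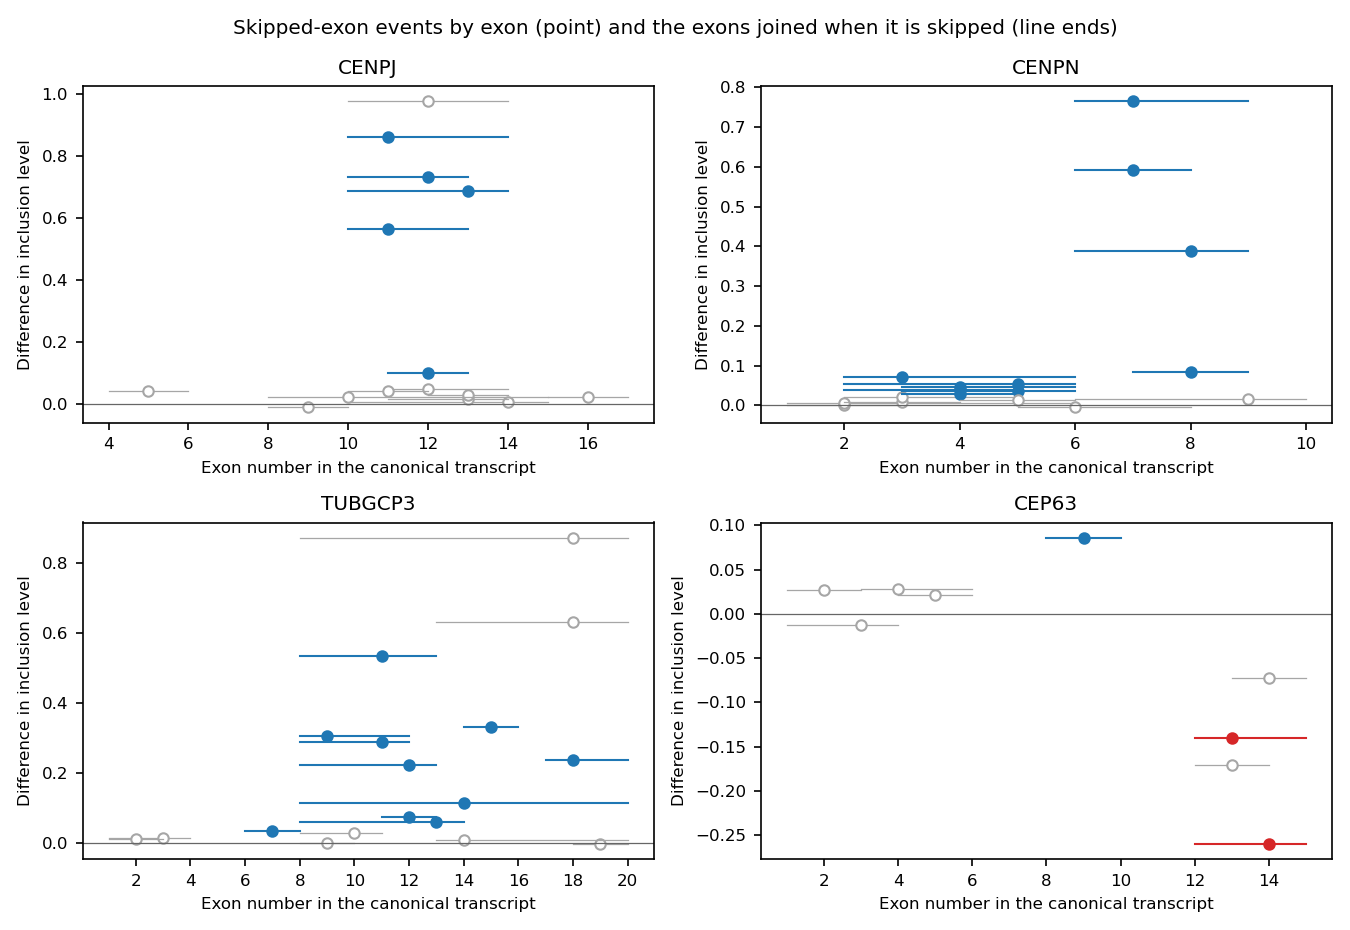
Each point is a skipped-exon event of CENPJ, CENPN, TUBGCP3 or CEP63, placed by exon number and by difference in inclusion level, and the line runs between the exons joined when it is skipped (blue, called and positive; red, called and negative; grey with open points, not called; events with an exon outside the numbering are left out). In CENPJ the called events between 0.563 and 0.861 all start at exon 10, and in CEP63 both negative calls join exon 12 to exon 15.

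In the constitutive centromere network, CENPN, which binds the CENP-A nucleosome, had the largest difference by event of lowest FDR. This was 0.765 at the 102-base exon 7 (codons 178 to 211, FDR listed as 0), whose 2 events had 0.593 and 0.765. A called event of CENPU exon 10, given below, was larger with 0.794. CENPN exon 8 had 0.389 where the skipped form joins exon 6 to exon 9 and 0.084 where it joins exon 7 to exon 9, both called. CENPN exons 3, 4 and 5 were called with 0.07, 0.029 and 0.054, so the gene held both large and small called differences. CENPI had 5 of 9 exons called, among them exon 16 with 0.418, exon 21 with 0.307 and exon 9 with 0.246. Its partners in the same subcomplex were called at fewer exons, CENPK at 3 of 8 with at most 0.15, CENPH at 1 of 7 with 0.032 and CENPM at none of 3.

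In the CENPO, CENPP, CENPQ and CENPU subcomplex, CENPU had 8 of 11 exons called, as many as TUBGCP3 and more than any other member gene. Its differences by the event of lowest FDR ran from 0.026 to 0.239, with runs at exons 2 to 5 and 9 to 11. CENPU exon 10 had 0.088 where the skipped form joins exon 9 to exon 12 (FDR = 6.6e-07). It had 0.666 for the join of exon 8 to exon 12 (FDR = 1.6e-05) and 0.794 for exon 6 to exon 12 (FDR = 8.5e-07). Each of these events names exon 10 alone as the exon kept. CENPP had 0.316 at exon 7 and CENPQ 0.315 at exon 2, which holds the start codon. CENPO differed in sign between neighbours, with -0.367 at exon 2 (114 bases, which holds the start codon, FDR listed as 0) and 0.059 at exon 3. CENPL, which pairs with CENPN, was called at a 138-base exon outside its canonical transcript, with 0.211 and 0.596 in 2 events. CENPT had 1 of 8 called, with 0.022, and CENPA and CENPC, the histone variant and its main reader, had none of 1 and of 4.

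CENPE, the kinesin motor of the outer kinetochore, held the largest negative difference of the called members. Exon 38 had -0.642 (291 bases, codons 1972 to 2068, FDR listed as 0) in its only event. CENPE exon 29 has the same length and had -0.009 (FDR = 1). The other 4 called CENPE exons had 0.097 at exon 5, 0.067 at exon 35, 0.062 at exon 34 and -0.067 at exon 25. Exon 39 also had an alternative 3′ splice site event on the junction from exon 37, the form without exon 38, where the site 3 bases upstream was used less in the first numbered library, with -0.228 (FDR = 0.0053). CENPF, the other corona protein, had no call among 5 exons and differences between -0.007 and 0.018.

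Of the genes in no list by role, CEP112 had 1 call among 11 exons, the 48-base exon 7 with 0.643 (FDR = 0.0018). In that event the skipped form joins exon 6 to exon 9 and leaves out exons 7 and 8. CEP85L had 0.463 and 0.44 at exons 10 and 11, and the skip of both leaves out 159 bases. CEP95 had 0.45 at exon 13, and CEP57L1 0.418 at exon 7. CEP350, a large centriole protein, had 7 of 11 exons called, with 0.438 at exon 17 and -0.111 at exon 5 (FDR = 0.062). CEP72, which works in centriolar satellites, had 5 of 7 called between 0.062 and 0.196. CEP70 had its only call at a 56-base exon that overlaps canonical exon 3, with -0.201 (FDR = 0.085).

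The value of an exon could differ between events with different flanking exons. Of the 172 called exons, 96 had a single event, 22 had several that were all called and 54 had at least 1 event without a call. Over all genes 10186 of 24008 called exons had a single event. Every event was called, single-event exons included, in 12945 of these 24008 exons and in 118 of the 172 members. In 10 called exons the events differed by 0.5 or more, namely in CENPJ exons 11 to 13, CENPU exons 9 and 10, CEP290 exon 8, CEP72 exon 4, CEP78 exon 10, CEP83 exon 5 and TUBGCP3 exon 18. In CENPU exon 9, CEP72 exon 4, CEP78 exon 10, CEP83 exon 5 and TUBGCP3 exon 18 the event furthest from 0 had no call. The spread rests on that event, whose FDR lay between 0.33 and 0.68 in each of these. In CENPJ exons 11 and 13 the low end of the spread came from events without a call. In CENPJ exon 12 called events had 0.102 and 0.732, and an event without a call had 0.976 (FDR = 0.14). Exons with such a spread were not counted over all genes. Among events whose flanks enclose 1 exon of the canonical transcript, 112 of 350 were called (32%, all genes 30.9%). With 2 exons enclosed 61 of 169 were called (36.1%, all genes 28.7%), and with 3 or more 27 of 143 (18.9%, all genes 21.8%). The median size of the called differences was 0.117, 0.151 and 0.113 in these classes, against 0.092, 0.115 and 0.126 over all genes. Of 117 member exons with both kinds of event, 26 were called in both, 9 only in the event that skips that exon alone, 31 only in a longer one and 51 in neither. Over all genes these counts were 3495, 2758, 4124 and 8549 of 18926 exons.

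Joint skips that kept the frame, as in CENPJ, CEP290 and CEP63, had like shares among joins with a called event and joins with an event not called. A join with events of both kinds was counted in both sets, so the sets overlap. With 2 exons enclosed, 17 of 40 member joins with a called event left out a multiple of 3 bases (42.5%). Of joins with an event not called these were 39 of 81 (48.1%), and over all genes the shares were 38.5% and 41.9%. With 3 or more these were 8 of 18 (44.4%) and 38 of 86 (44.2%), against 39.3% and 39.5% over all genes.

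Called exons lay beside each other in many genes. Of 253 pairs of adjacent tested exons, 50 had both called, 92 had 1 called and 111 had neither. The next exon was called after 49.5% of called exons (50 exons) and after 27% of the others (41 of 152). Over all genes these shares were 48.4% and 32.9% of 33701 pairs, so called exons lay beside each other outside the members as well. Runs of 3 called exons stood in CENPJ, CENPN, CEP57, CEP72, CEP78, CEP83, CEP89 and TUBGCP6, of 4 in CENPU and of 5 in TUBGCP3. Adjacent exons share junction reads where an event spans both, so these values are not independent.

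Called exons were shorter than the others, with a median length of 108 bases (95% interval 95 to 115) against 127 bases (121 to 136), and over all genes the medians were 102 and 123. The share called was 47 of 85 among members of up to 75 bases (55.3%, all exons 46.5%) and 12 of 51 among those over 200 bases (23.5%, all exons 20%). The 9 negative calls had a median length of 204 bases with a wide interval of 72 to 291, which holds the median of 106 bases of the positive calls (94 to 114), and 5 of 9 were over 200 bases long against 7 of 163. Over all genes 34.6% of negative and 4.31% of positive called exons were over 200 bases, a difference that the few negative members cannot settle on their own.

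**Figure D4:**
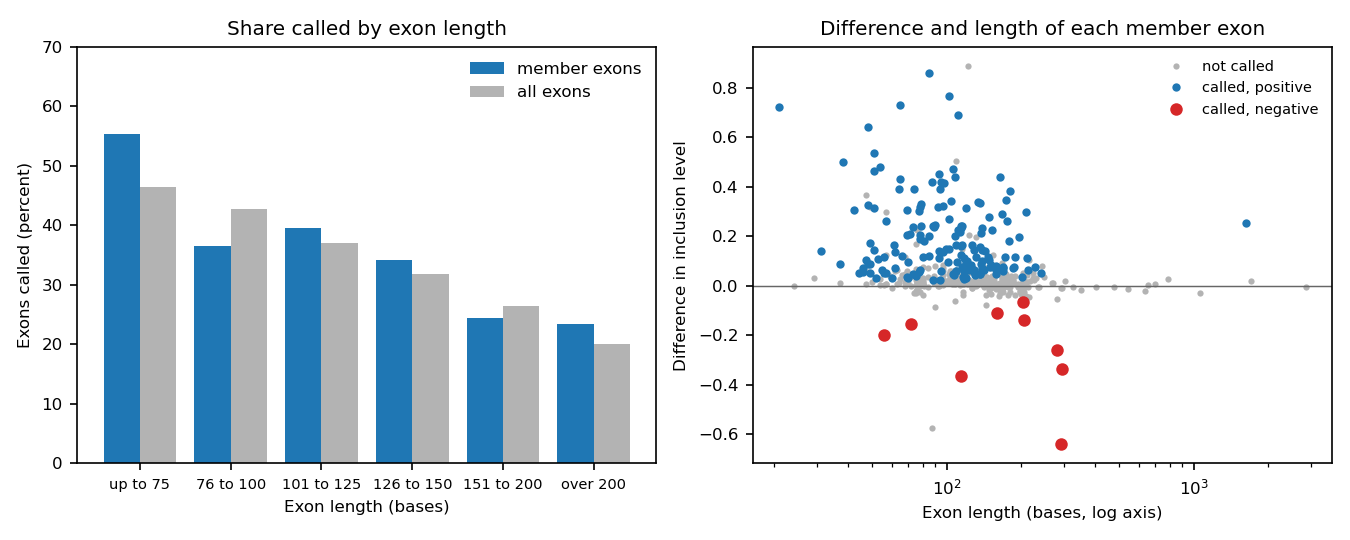
Left, the percent of exons called by exon length in bases for the members (blue) and for all exons (grey). Right, the length of each member exon on a log axis against its difference, with calls in blue when positive and in red when negative. The shortest class has the highest share, 55.3% of the members, and 5 of the 9 negative calls lie beyond 200 bases.

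A length that is a multiple of 3 was found for 72 of 172 called exons (41.9%) and for 132 of 300 others (44%), against 36.3% and 40.2% over all genes. Most members, 434 of 472, lay within the coding sequence, and 159 of these were called (36.6%). Of coding exons whose skip keeps the frame 66 of 189 were called (34.9%), and of those whose skip shifts it 93 of 245 (38%). These shares lie near the 35.8% of all exons, and coding exons of all genes were not counted apart.

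Splice sites were scored against annotated human sites as log2 ratios, a higher score meaning a site closer to the usual one. The median 3′ splice site score was 9.12 in called members (95% interval 8.43 to 9.80) and 8.77 in the others (8.26 to 9.26), intervals that overlap. Over all genes the order was the other way, with 9.04 and 9.30. The intervals of the median 5′ splice site score also overlapped, 7.25 to 8.21 in called members and 7.42 to 8.20 in the others. Single exons stood far from these medians, among them TUBGCP3 exon 15 with a 3′ score of 1.01 and CEP162 exon 18 with 1.06. The 5′ score of CEP162 exon 18 was 12.65 and that of TUBGCP3 exon 15 was 4.30. CENPE exon 38, with the largest negative difference, had 5.97 and 6.41, and CEP290 exon 8, among the largest positive ones, had 12.45 and 10.43.

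Of the 300 exons without a call, 230 had a positive difference, 65 a negative one and 5 had 0. Among them 16 had a size of 0.1 or more, which the test did not separate from 0 at this FDR. The largest were 0.888 at CEP57 exon 4 (FDR = 0.28), -0.576 at CEP128 exon 10 (FDR = 0.34) and 0.503 at CENPU exon 8 (FDR = 0.25). Each came from an event whose flanks enclosed several exons.

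The other event types held fewer events of these genes. Of 211 mutually exclusive exon events, 70 were called (33.2%), against 39.3% over all genes, and 51 of the 70 used a called member exon, so they are not separate evidence. Alternative 3′ splice sites were called in 4 of 10 events (23% over all genes), all with less of the longer form in the first numbered library. Beside CENPE these were CEP170 exon 14 with -0.131 (FDR = 6.4e-12), CEP97 exon 9 with -0.136 (FDR = 0.038) and CENPM exon 4 with -0.013 (FDR = 0.032). Alternative 5′ splice sites were called in 2 of 9 events (28.2% over all genes), CENPW exon 1 with 0.027 (FDR = 0.00091) and CEP170 exon 15 with 0.047 (FDR = 0.059). No retained intron event belonged to these genes, in a table where 48.2% of 677 events were called.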

How the data were processed

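RNA of 2 HEK293T libraries was compared. The authors aligned the reads with STAR 2.5.1 to hg19 (GRCh37), per the submitters' processing notes, and tested splicing with rMATS, whose version is not given in the sources used here. The deposited p-values and FDR values were taken as they stand, and the deposited inclusion level difference was used as a score from -1 to 1. It was computed by the authors as library 1 minus library 2. The event lengths in the deposited skipped-exon table count reads on the exon body. In the 5 tables, 30 per-library columns were not used, since their numbers match no sample label.

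Members were selected by gene symbol. Values of 1 member gene are not reported here, though its exons are in the counts. Members and gene lists were chosen with earlier results of these data known. The named genes were, in the CEP and CENP families, the 10 genes with the largest positive and the 5 with the largest negative called difference, every TUBGCP gene, the 5 genes of lowest FDR, those with the most called exons or with 10 or more exons and none called, and 2 to 4 of each role. Other genes and events were named after their values were seen. GENCODE 44 lifted to GRCh37 gave exon numbers and reading frames. Splice sites were scored by position weights from 300873 annotated 5′ and 300290 annotated 3′ sites, with a pseudocount of 0.5. The annotation lists pseudogene copies of several members, CENPI, CENPN, CENPP, CENPU, CEP57L1, CEP164 and CEP170 among them, so reads may be shared. Intervals are 95% (Wilson for shares, order statistics for medians), treat exons as independent and cover counting error only. No p-value was computed here. The counting was tested on simulated data. Stricter FDR limits, a minimum size, single-event exons, events in place of exons and leaving out genes were tried. Python 3.11.15, pandas 2.3.3, numpy 2.4.6, scipy 1.17.1 and matplotlib 3.10.9 were used.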

Additional observations from a re-analysis of the deposited data

How the results depend on the processing

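Each share or median was recomputed under the alternatives that touch it. The share of called members fell from 36.4% to 31.4% at an FDR under 0.05, 26.1% under 0.01, 22.2% with a size of at least 0.1, 30.3% among exons with 1 event and 30% of events. If every event of an exon had to be called, a choice made after seeing the data, it was 25%. Over all exons these values were 32.3, 26.9, 19.9, 25.3, 27.5 and 19.3%. With 1 event or every event called the members' interval lay above all exons, with 1 event only narrowly. At both stricter FDR limits the members' share was below that of all exons. The CEP share was 28.4% under 0.05, 23% under 0.01, 23.3% with the size limit, 28.6% with 1 event and 24.9% with every event called. The CENP share was 17% with the size limit, 28.1% of events and 22.6% with every event called. The TUBGCP share was 26.4% with the size limit, 30.6% of events and 30.2% with every event called. The other centrosome and kinetochore genes, 38.2% together, were at 31.1% under 0.01, 22.6% with the size limit, 23.8% with 1 event, 28.6% of events and 17.5% with every event called. The median size was 0.2 under 0.01 and 0.237 with the size limit. Each of these limits removes calls by construction. The other 34 of 58 values stayed within the interval of the reported value, among them all shares of positive calls (92.4 to 96.6%) and of lengths that are a multiple of 3 (41.7 to 46.3%). CENPU and TUBGCP3 tied for the most called exons, and without either the share was 35.6 or 35.7%. The CENP share without CENPU was 32.6% and the TUBGCP share without TUBGCP3 39%, both added after seeing the data. Of 31 named exons, 28 kept their call under 0.05, 28 under 0.01, 28 with the size limit and 26 with every event called. No paired analysis was possible because there was a single control and a single treated library. Read depth was not used, so low coverage behind a value cannot be seen.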
